A study of Mus musculus with 6 samples.

Results

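The genes described here are 34 targets of the transcription factor NRF2 and enzymes of glutathione and NADPH metabolism, read in fetal liver cells of mouse embryos. They were taken by symbol from a list, and all 34 were found among the 34542 gene symbols of the deposited table. Embryos of genotype miR-144/451-/- (KO, 3 libraries, replicates 4 to 6) were compared with embryos wild type at that locus (WT, 3 libraries, replicates 1 to 3). Both groups were of strain C57BL/6J. Polyadenylated RNA was sequenced from whole fetal liver cell preparations, with the same number of cells put into each. The labels give no embryonic day and do not tell pooled from single embryos, so the p-values speak of the spread among these 6 libraries, which may be technical. The genotype label names no tissue-specific driver for the deletion. Values in lists follow the replicate numbers, 4, 5 and 6 for KO and 1, 2 and 3 for WT.

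NRF2, the product of Nfe2l2, is held in the cytoplasm and marked for destruction by KEAP1 until oxidants or electrophiles modify KEAP1. It then pairs with a small MAF protein on antioxidant response elements and switches on genes that make glutathione, supply NADPH and conjugate or export reactive compounds. BACH1, a heme-sensing repressor, binds the same elements. Red cells carry heme iron and oxygen, and they depend on NADPH from the pentose phosphate pathway to keep glutathione and thioredoxin reduced. miR-144 has been reported to target the human NFE2L2 transcript, and both microRNAs of the deleted locus are abundant in maturing red cells.

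The deleted microRNA genes checked the labels. Mir144 had 1, 1 and 0 counts in KO libraries and 51, 47 and 29 counts in WT libraries, and Mir451 had 3, 2 and 4 counts in KO libraries and 323, 446 and 418 counts in WT libraries. Gene counts per library totalled 40392139 to 44700229 in KO and 24659978 to 36082084 in WT. Hepatocyte content varied within both groups: the summed level of 20 hepatocyte markers was 13648, 21449.6 and 48870.2 CPM (counts scaled to a common library size) in KO libraries and 15800, 59886 and 9279 CPM in WT libraries. KO replicate 6 and WT replicate 2 thus stood apart from the rest. The summed level of 13 erythroid markers was 18888, 21227 and 18104 CPM in KO libraries, below all WT libraries at 32509, 23664 and 28731 CPM. Summed mast cell markers were also wholly lower in KO, at 27.0, 33.4 and 30.9 CPM in KO libraries and 54.4, 42.5 and 39.5 CPM in WT libraries. Of 6 mast cell markers tested, 2 had an edgeR unadjusted p under 0.05, against 16.6% of all genes tested, and Tpsab1 was at 0 in at least 1 library. Of the 13 erythroid markers, 8 had groups that did not overlap. Among all genes tested, 11.8% had KO wholly higher and 10.9% wholly lower. One of the 13, Tfrc, fell past the threshold, against 1.45% of all genes tested. Macrophage markers summed to 374, 451 and 562 CPM in KO libraries and 404, 782 and 322 CPM in WT libraries, and endothelial markers to 143, 151 and 329 CPM in KO libraries and 124, 334 and 109.9 CPM in WT libraries. Neutrophil markers summed to 1548, 3231 and 2149 CPM in KO libraries and 4216, 3392 and 2428 CPM in WT libraries, so their groups overlapped. Their median log2 change was -0.57, against -0.54 for erythroid and -0.54 for mast cell markers. The part of neutrophils in the differences below was not tested. No hepatocyte, erythroid, macrophage or endothelial marker was at 0 in any library. In bulk RNA, fewer cells of a type and less RNA per cell cannot be told apart.

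The WT columns of the intron table went against their labels. Over 9376 genes, each library's deviation from its group mean was correlated between exon and intron columns. In KO, each exon column was closest to the intron column of the same label (r = 0.73, 0.36 and 0.72 for replicates 4, 5 and 6). In WT, the same-label r was 0.44, -0.44 and -0.74, and the exon columns of replicates 1, 2 and 3 were closest to the intron columns labelled WT replicate 2 (r = 0.53), replicate 3 (r = 0.80) and replicate 1 (r = 0.74). These correlations are across genes of libraries that share cell mixtures, and they are given as a description. Introns of the hepatocyte markers summed to 2681, 5121 and 7566 CPM in KO columns and 1498, 3738 and 8987 CPM in WT columns, so the intron column labelled WT replicate 3 was the highest, where the exon counts put replicate 2. The labels were kept as deposited. The KO against WT test of introns does not use the match of exon to intron columns, and the exon-minus-intron fit was also run without it.

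**Figure D1:**
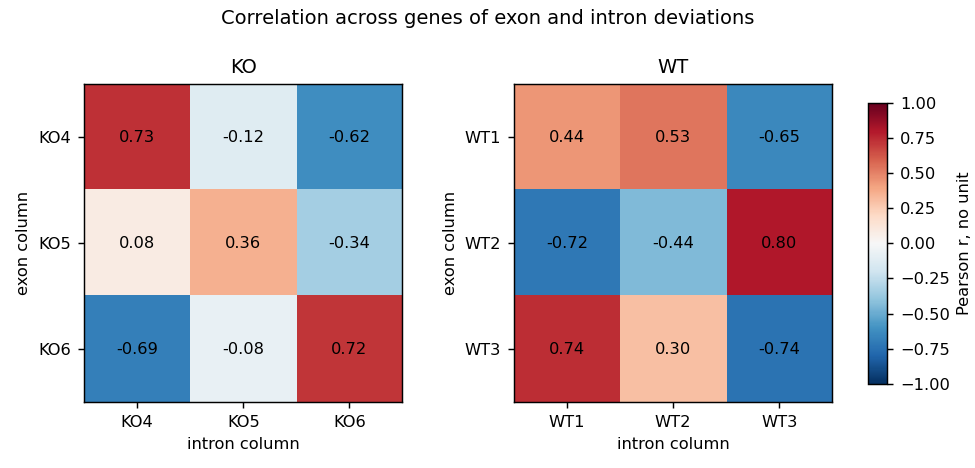
Pearson correlation (no unit) across 9376 genes between each exon column (rows) and each intron column (columns), after subtracting the group mean, for KO (left) and WT (right). The diagonal, which joins equal labels, holds the highest value of each row in KO, 0.73, 0.36 and 0.72, while in WT the highest values lie off it, at 0.53, 0.80 and 0.74.

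The sequences that bear on these genes are 2 mature microRNAs of the deleted locus, their matches in the 34 genes, and the antioxidant response element. The microRNAs, from RefSeq on GRCm38.p6, lie on chromosome 11, at chr11:78073047-78073066 and chr11:78073186-78073207 on the plus strand. Capitals mark the seed, bases 2 to 8, and the seeds of the 2 microRNAs differ.
mmu-miR-144-3p: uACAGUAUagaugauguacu
mmu-miR-451a: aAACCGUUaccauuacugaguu
A match to bases 2 to 8 was sought in the longest annotated 3′ untranslated region of each gene (GENCODE, GRCm38), on the sense strand. ATACTGT, the match to miR-144-3p, was in 3 of the 34 genes (8.82%), against 2506 of 21020 genes with such a region (11.9%). AACGGTT, the match to miR-451a, was in 2 of the 34 (5.88%), against 368 of the 21020 (1.75%). The 5 sites follow, with the match in capitals. Only the Idh2 site also has the A that makes an 8mer.
Srxn1, miR-451a: gcctttaagtAACGGTTctcaaaacct
Me1, miR-451a: acttgtgactAACGGTTtcttcagtgt
Slc7a11, miR-144-3p: ggggacatctATACTGTgaaagtattt
Idh2, miR-144-3p: agtgttctgcATACTGTaatttatatt
Gstt2, miR-144-3p: tggttttattATACTGTcctataatat
The core of the antioxidant response element, TGACNNNGC, was sought on both strands from 250 bases before to 50 bases after each RefSeq gene start (GRCm38.p6). A window was held for 27 of the 34 genes; Gclc, Gsr, Msra, Gsta4, Gstt2, Hmox1 and Abcc1 had none. The core was in 9 of the 27 (33.3%), against 3781 of 27025 genes (13.99%). Counted by window, since some genes have several starts, it was in 9 of 35 (25.7%), against 12.4% of all windows. The list holds NRF2 targets by choice, so these shares are not independent of how the genes were picked. The 9 genes were Srxn1, Gstm5, Gclm, Me1, Txnrd1, Pgd, G6pdx, Mgst1 and Ugdh, the last with 2 cores. Those of the 2 genes with the lowest p among the higher ones, of the glutathione synthesis subunit Gclm and of Me1 are shown, with the fixed bases of the core in capitals.
Srxn1, chr2:152105552-152105560, opposite strand: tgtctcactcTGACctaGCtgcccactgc
Gstm5, chr3:107895812-107895820, gene's strand: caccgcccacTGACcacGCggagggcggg
Gclm, chr3:122245423-122245431, opposite strand: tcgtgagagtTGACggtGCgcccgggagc
Me1, chr9:86695912-86695920, gene's strand: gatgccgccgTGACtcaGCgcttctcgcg
A match is a description of letters and not a bound site.

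Across the 34 genes, none passed the threshold between KO and WT livers. With edgeR's quasi-likelihood test at an adjusted p under 0.05, 0 of 34 were called in either direction, while 1.83% of the 15105 genes tested were called higher in KO and 1.45% lower. By unadjusted p under 0.05, 3 of the 34 differed (Srxn1, Gstm5 and Slc7a11), against 16.6% of all genes tested. The median log2 change of the 34 was -0.04, with 15 above 0 and 19 below, and 23 lay within 0.2 of 0. Over all genes tested the median was -0.03 and 44.8% lay above 0, against 44.1% of the 34. The standard errors of the 34 had a median of 0.157, against 0.156 for all genes tested, and ran from 0.0696 to 0.755. The libraries of KO lay wholly above those of WT for Srxn1 and Gstm5, against 11.8% of all genes tested, and wholly below for Slc7a11, against 10.9%. DESeq2, run on the same counts, called those 3: Srxn1 (adjusted p = 0.0117) and Gstm5 (adjusted p = 0.0188) higher and Slc7a11 (adjusted p = 0.0335) lower in KO. It also called more genes everywhere, 3.83% higher and 3.53% lower. limma-voom called 0 of the 34, against 1.79% higher and 1.45% lower of all genes tested.

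Which of the 34 passed differed with how hepatocyte content was treated. With the marker level as a covariate, Srxn1 and Gstm5 were called higher and Slc7a11 and Mgst2 lower, while 8.53% of all genes were called higher and 8.64% lower. Without the 2 libraries of highest hepatocyte content, KO replicate 6 and WT replicate 2, Srxn1 and Gstp1 were called higher and Slc7a11 and Glrx lower, against 3.85% higher and 5.56% lower among all genes tested. Without WT replicate 2 alone, Srxn1 was called higher and Slc7a11, Glrx and Nqo1 lower, against 3.16% higher and 6.61% lower. Srxn1 and Slc7a11 were in each of these 3 sets, 2 of which left out WT replicate 2, and in that of DESeq2. Neither was called in the main fit, with another scaling, with no filter on low counts or by limma-voom. Nor was either called when any single library other than WT replicate 2 was left out. The direction of both was the same in every setting run.

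**Figure D2:**
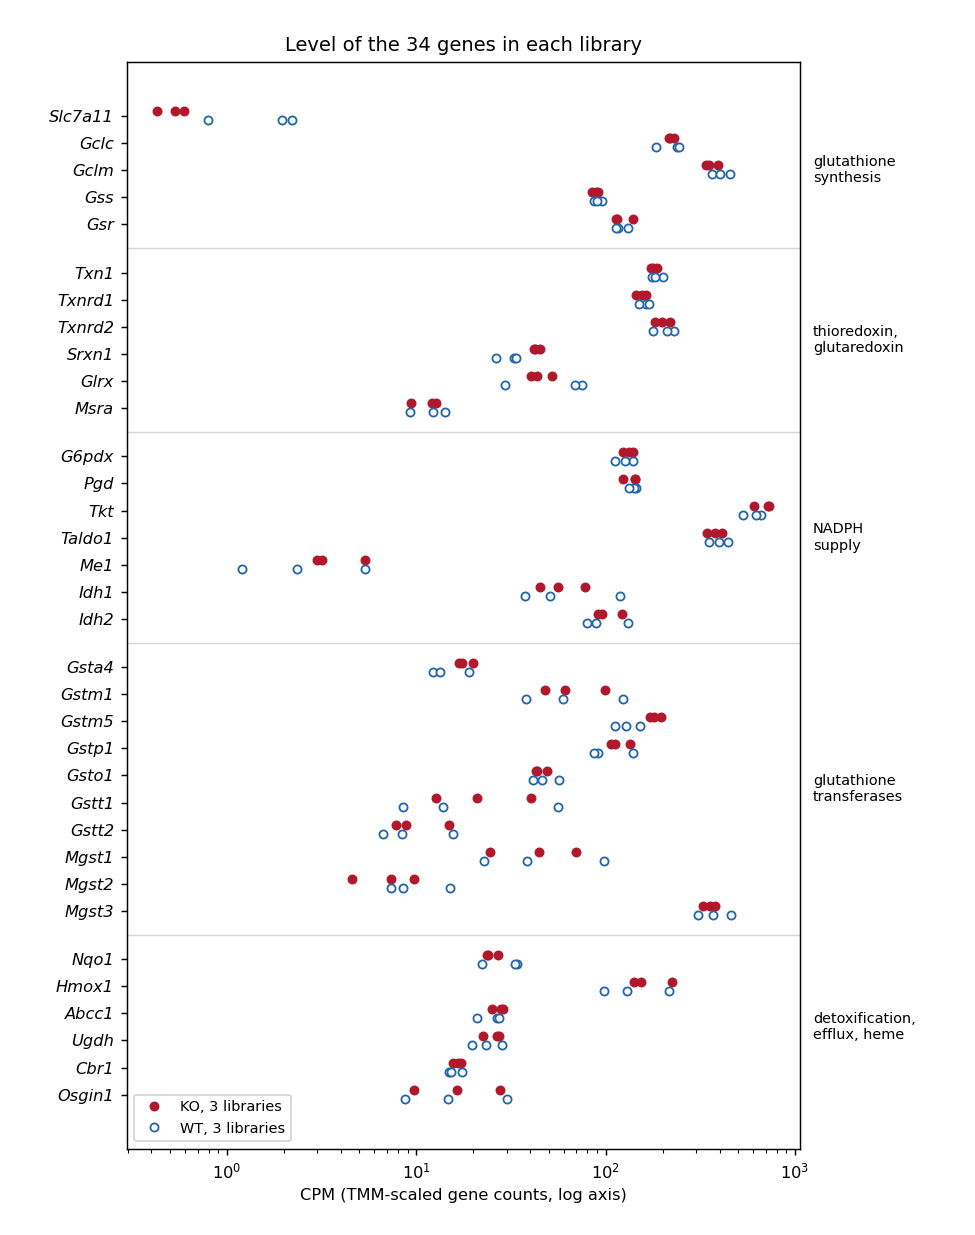
Level of each of the 34 genes in CPM on a log axis, in the 3 KO libraries (filled red) and the 3 WT libraries (open blue), grouped by role. Srxn1 and Gstm5 have all KO points to the right, Slc7a11, the lowest of the 34, has all KO points to the left, and KO and WT points overlap in the others.

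Among the 5 genes of glutathione synthesis, recycling and cystine uptake, the cystine transporter Slc7a11 was the one whose groups did not overlap. Slc7a11 exchanges glutamate for the cystine from which cells take cysteine for glutathione. It was at 0.596, 0.429 and 0.533 CPM in KO livers, against 1.95, 0.799 and 2.20 CPM in WT livers, from 28, 18 and 22 counts in KO and 65, 28 and 53 counts in WT. WT replicate 2, which was high in hepatocyte markers, was the WT library nearest to KO. The mean was 0.520 ± 0.0843 CPM in KO and 1.65 ± 0.747 CPM in WT (SD, n = 3 each). The log2 change was -1.65 (SE 0.42, unadjusted p = 0.00632, edgeR adjusted p = 0.103). It passed the threshold without WT replicate 2, at a log2 change of -1.98 (adjusted p = 0.0115), and with hepatocyte marker level entered as a covariate, at -1.46 (adjusted p = 0.00906). Over the 12 alternatives run, its adjusted p went from 0.00906 to 0.335. Erythroid and mast cell markers were lower in KO as well, and their part in the Slc7a11 difference was not tested. Its level per kilobase of transcript was the lowest of the group, 0.0563 CPM per kb in KO and 0.179 CPM per kb in WT. The annotated span of Slc7a11 overlaps 5 other annotated features, among them Gm37854 antisense to it. With no strand setting stated, reads in a shared stretch cannot be assigned with certainty.

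None of the enzymes that build glutathione or recycle it passed the threshold, and their changes were small. Gclm is the modifier and Gclc the catalytic subunit of glutamate-cysteine ligase, the rate-limiting step. Gclm was at 337, 391 and 351 CPM in KO livers and 456, 364 and 401 CPM in WT livers, with a log2 change of -0.18 (SE 0.12, adjusted p = 0.548); KO replicate 5 lay above WT replicate 2, so the groups overlapped. Per kilobase, Gclm at 64.3 CPM per kb in KO and 72.8 CPM per kb in WT was close to Gclc at 64.5 CPM per kb in KO and 65.0 CPM per kb in WT. Gclc averaged 221 ± 6.99 CPM in KO and 222 ± 32.8 CPM in WT (SD, n = 3 each), with a log2 change of -0.01 (SE 0.12). Glutathione synthetase (Gss), the second step, differed by -0.04 (SE 0.07), the smallest standard error of the 34. Glutathione reductase (Gsr), which uses NADPH to regenerate glutathione, differed by 0.03 (SE 0.11). The annotated Gss gene overlaps Acss2, and reads in a shared stretch cannot be assigned with certainty.

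In the thioredoxin, glutaredoxin and repair group, sulfiredoxin (Srxn1) had the largest log2 change of the 34 upward, and it did not pass the threshold. Srxn1 reduces over-oxidised peroxiredoxins, abundant peroxide-removing enzymes of red cells, and lies at chr2:152105516-152111376 on the plus strand. It was at 41.6, 45.3 and 42.4 CPM in KO livers, against 32.8, 26.4 and 33.6 CPM in WT livers. The 3 KO libraries lay close together and above every WT library, by a log2 change of 0.48 (SE 0.11, unadjusted p = 0.00475, edgeR adjusted p = 0.0877). The mean was 43.1 ± 1.91 CPM in KO and 30.9 ± 3.94 CPM in WT (SD, n = 3 each). WT replicate 2 was the lowest library. Without it the change was 0.38 and passed the threshold (adjusted p = 0.0348), and with the hepatocyte covariate it was 0.51 (adjusted p = 0.00370). Its adjusted p spanned 0.00370 to 0.228 over the 12 alternatives. In these 6 libraries the erythroid and mast cell markers were lower in KO, and their part in the Srxn1 difference was not tested.

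The intron change of Srxn1 had the opposite sign to that of its gene counts and lay within its error. Its introns were at 21.8, 17.7 and 22.0 CPM in KO columns and 20.4, 21.9 and 24.7 CPM in WT columns, a log2 change of -0.12 (SE 0.19). The exonic change exceeded the intronic one by 0.61 on the log2 scale (SE 0.22, unadjusted p = 0.0240), but this was no call after adjustment over 11100 genes (edgeR adjusted p = 1.0). Without the sample term, so that no exon column is tied to an intron column, the difference was 0.60 (unadjusted p = 0.0108, adjusted p = 0.664). Srxn1 is one of the 2 genes among the 34 with a miR-451a seed match, shown above. The other is Me1, whose exon-minus-intron difference had the opposite sign, -0.43 (SE 0.61). In gene counts Me1 changed by 0.36 (SE 0.54). The genes with a miR-144-3p match changed by -1.65 (SE 0.42, Slc7a11), 0.04 (SE 0.21, Idh2) and 0.04 (SE 0.38, Gstt2). The part of either microRNA in these changes was not tested.

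The rest of this group did not separate KO from WT. Thioredoxin (Txn1), the protein that passes electrons to many oxidised thiols, was the highest per kilobase, at 171 CPM per kb in KO and 177 CPM per kb in WT. It was at 178, 187 and 174 CPM in KO livers and 201, 175 and 182 CPM in WT livers, with a log2 change of -0.05 (SE 0.08). Its cytosolic reductase Txnrd1, a selenoprotein that draws on NADPH, was at 163, 155 and 145 CPM in KO livers and 164, 149.9 and 170.3 CPM in WT livers, a change of -0.06 (SE 0.08). The groups overlapped for both, and the mitochondrial reductase Txnrd2 differed by -0.04 (SE 0.12). Glutaredoxin (Glrx), which removes glutathione from proteins, was at 43.3, 52.1 and 40.5 CPM in KO livers, against 75.3, 29.3 and 69.0 CPM in WT livers. WT replicate 2 was the lowest of all 6 and the other 2 WT libraries the highest, so the change of -0.35 had a wide error (SE 0.34, adjusted p = 0.738). Leaving out WT replicate 2 made Glrx a call, at -0.67 (adjusted p = 0.0256), while over the 12 alternatives the adjusted p ran from there to 0.967. Methionine sulfoxide reductase Msra was at 9.44, 12.2 and 12.7 CPM in KO livers and 12.3, 14.3 and 9.30 CPM in WT livers, and the groups overlapped.

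The 7 genes of NADPH supply gave no call. Transaldolase (Taldo1) and transketolase (Tkt), of the non-oxidative pentose phosphate pathway, were the most abundant. Taldo1 reached 277 CPM per kb in KO and 292 CPM per kb in WT. Tkt stood at 212 CPM per kb in KO and 187 CPM per kb in WT. In CPM, Taldo1 was at 378, 411 and 344 in KO livers and 445, 349.5 and 399 in WT livers, a log2 change of -0.07 (SE 0.12). Tkt was at 728, 717 and 605 CPM in KO livers and 658, 534 and 619.5 CPM in WT livers, with a change of 0.18 (SE 0.13, adjusted p = 0.603), and KO replicate 6 fell within the WT range. The oxidative branch makes NADPH directly. Its first enzyme, glucose-6-phosphate dehydrogenase (G6pdx), averaged 132 ± 8.06 CPM in KO and 126 ± 13.2 CPM in WT, and 6-phosphogluconate dehydrogenase (Pgd) averaged 137 ± 11.3 CPM in KO and 139.6 ± 6.03 CPM in WT (SD, n = 3 each). Their changes were 0.07 (SE 0.10) and -0.03 (SE 0.09). Of the distinct 50-base words in the Taldo1 transcript, 10.9% also occur in a pseudogene. For G6pdx, 7.65% occur in its copy G6pd2, and its annotated span overlaps Ikbkg.

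The remaining sources of NADPH varied more among libraries than between groups. Isocitrate dehydrogenase 1 (Idh1, cytosolic) was at 44.8, 55.9 and 77.8 CPM in KO livers and 50.9, 119 and 37.4 CPM in WT livers. Idh2, the mitochondrial form, was at 90.8, 95.3 and 122 CPM in KO livers and 89.1, 131 and 79.5 CPM in WT livers. In both genes the highest libraries were KO replicate 6 and WT replicate 2, and the log2 changes were -0.22 (SE 0.44) for Idh1 and 0.04 (SE 0.21) for Idh2. Malic enzyme (Me1) averaged 3.84 ± 1.31 CPM in KO and 2.98 ± 2.17 CPM in WT (SD, n = 3 each), and 26.5% of its 50-base words also occur in pseudogenes.

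Of the 10 glutathione transferases, which join glutathione to electrophiles or to lipid products, Gstm5 was the one whose groups did not overlap. Gstm5, a mu-class enzyme at chr3:107895821-107898686 on the plus strand, was at 171, 196 and 179.7 CPM in KO livers, against 153, 112 and 128 CPM in WT livers. The highest WT library, replicate 1, lay below the lowest KO library, replicate 4. The mean was 182 ± 12.8 CPM in KO and 131 ± 20.5 CPM in WT (SD, n = 3 each). The log2 change was 0.48 (SE 0.13, unadjusted p = 0.00829), with an edgeR adjusted p of 0.120, so Gstm5 was no call, and with the hepatocyte covariate it was 0.50 (adjusted p = 0.0152). Over the 12 alternatives the adjusted p ran from 0.0152 to 0.320. Its introns were at 16.8, 17.96 and 19.7 CPM in KO columns and 9.44, 10.4 and 11.5 CPM in WT columns, with no overlap. The intron change was 0.79 (SE 0.20, unadjusted p = 0.00490, adjusted p = 0.181). The exon-minus-intron difference of Gstm5 was -0.31 (SE 0.20, edgeR unadjusted p = 0.168), so the intron change was not shown to exceed the exonic one. None of its 50-base words occurs in another transcript, but 4933431E20Rik is annotated antisense to it, and with no strand setting stated the 2 cannot be separated. The erythroid and mast cell markers were lower in KO, and their part in the Gstm5 difference was not tested.

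**Figure D3:**
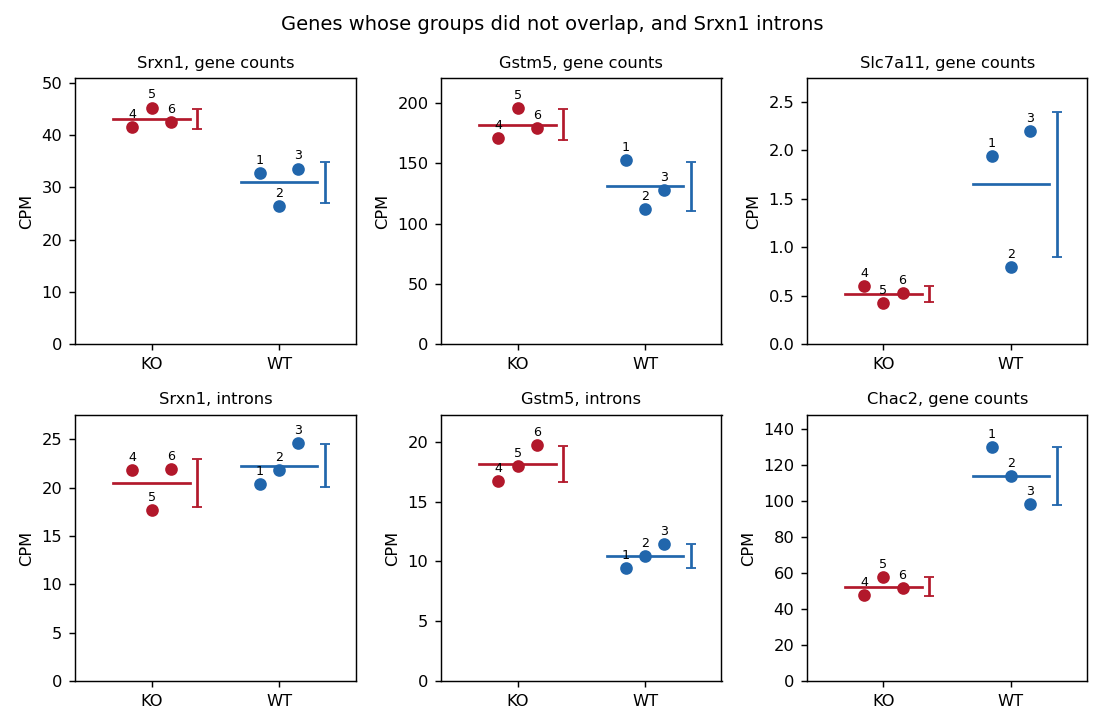
CPM per library for Srxn1, Gstm5, Slc7a11 and Chac2, with introns of Srxn1 and Gstm5, KO left and WT right in each panel; numbers are replicates, lines the means and side bars the SD. KO and WT do not overlap in the gene counts of these genes or in Gstm5 introns, while Srxn1 introns overlap, at 17.7 to 22.0 CPM in KO and 20.4 to 24.7 CPM in WT.

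The other transferases did not separate KO from WT. Microsomal transferase Mgst3, a membrane enzyme that acts on lipid peroxides, had the highest level per kilobase, 322 CPM per kb in KO and 345 CPM per kb in WT. Mgst3 was at 356, 379 and 325 CPM in KO livers and 457, 308 and 369 CPM in WT livers, a log2 change of -0.10 (SE 0.16). Gsta4, which conjugates the lipid aldehyde 4-hydroxynonenal, was at 16.7, 17.5 and 19.96 CPM in KO livers and 12.3, 18.9 and 13.4 CPM in WT livers. WT replicate 2 fell among the KO libraries, and the change was 0.28 (SE 0.19, adjusted p = 0.567). The pi-class enzyme Gstp1 was at 107, 112 and 135 CPM in KO livers and 90.9, 139 and 87.2 CPM in WT livers, a change of 0.15 (SE 0.20). Of its 50-base words 62.3% also occur in other transcripts, mainly its copy Gstp2, so its counts are uncertain. Mgst2 was at 4.58, 7.37 and 9.79 CPM in KO livers and 8.51, 15.03 and 7.35 CPM in WT livers, with a change of -0.51 (SE 0.37, adjusted p = 0.610). With the hepatocyte covariate Mgst2 became a call, at -0.61 (adjusted p = 0.0146), where the 12 alternatives reached 0.891.

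Among the 6 genes of detoxification, efflux and heme handling, none separated KO from WT. The quinone reductase Nqo1, a widely used readout of NRF2, was at 23.7, 27.0 and 23.8 CPM in KO livers and 33.97, 22.1 and 33.2 CPM in WT livers. The KO libraries lay between WT replicate 2 and the other 2 WT libraries, and the log2 change was -0.26 (SE 0.18, adjusted p = 0.581). Without WT replicate 2 it was a call, at -0.43 (adjusted p = 0.0444), the lowest of 12 alternatives that reached 0.918. Heme oxygenase 1 (Hmox1), which breaks down heme and is also strong in macrophages, had the highest level per kilobase of the group, 110.4 CPM per kb in KO and 94.6 CPM per kb in WT. It was at 142, 153 and 224 CPM in KO livers and 130.3, 217 and 98.1 CPM in WT livers, a change of 0.22 (SE 0.32). The export pump Abcc1, which carries glutathione conjugates, was at 28.0, 28.8 and 25.2 CPM in KO livers and 26.7, 20.9 and 27.2 CPM in WT livers, a change of 0.13 (SE 0.13). Ugdh, which makes UDP-glucuronate, differed by 0.10 (SE 0.16), and the carbonyl reductase Cbr1 by 0.06 (SE 0.11).

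**Figure D4:**
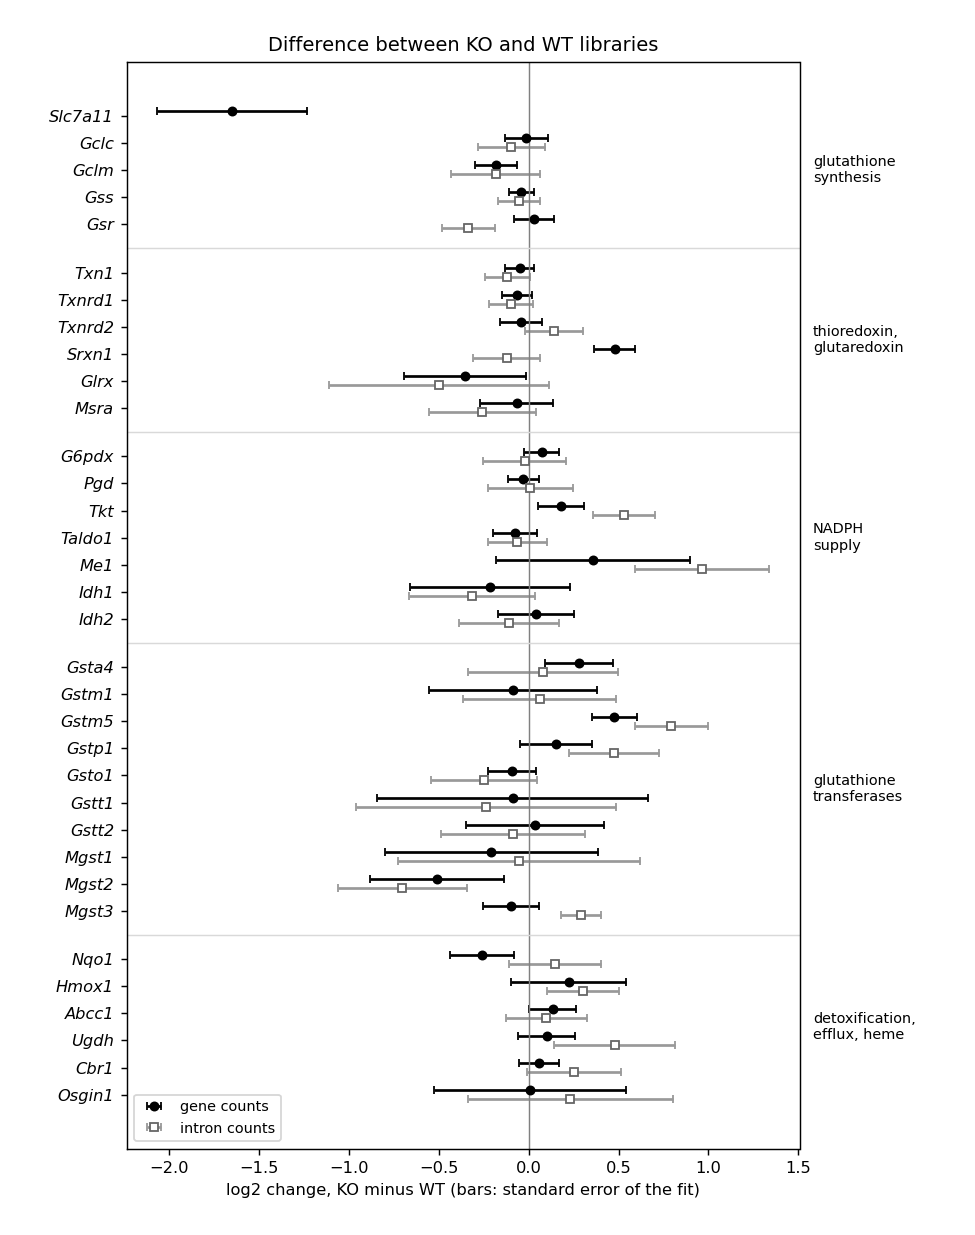
Log2 change, KO minus WT, of each of the 34 genes in gene counts (filled circles) and intron counts (open squares), with the standard error of the fit as bars. Slc7a11 at -1.65 in gene counts and Me1 at 0.96 in introns mark the ends, most gene-count points lie within 0.2 of 0, and Slc7a11 has no intron point because its introns were too low to test.

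Part of the 34 varied with the hepatocyte content of the libraries within each group. In 12 of them the libraries ran in the order of the hepatocyte markers, replicate 6 above 5 above 4 in KO and replicate 2 above 1 above 3 in WT; the same order held for 16.8% of all genes tested. The 12 were Msra, Idh1, Idh2, Gstm1, Gstp1, Gsto1, Gstt1, Gstt2, Mgst1, Mgst2, Hmox1 and Osgin1, of which 7 are transferases. The reverse order held for 2 of the 34, Gclc and Txnrd1, against 13.4% of all genes tested. Gstt1, a theta-class transferase, spanned the most, at 12.7, 21.0 and 40.5 CPM in KO livers and 13.9, 56.1 and 8.55 CPM in WT livers. Microsomal Mgst1 was at 24.4, 44.6 and 69.4 CPM in KO livers and 38.6, 98.1 and 22.8 CPM in WT livers. In both genes the range within each group was far wider than the difference between group means.

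The mu-class Gstm1 was at 47.7, 61.1 and 99.6 CPM in KO livers and 59.4, 124 and 38.1 CPM in WT livers, and 23.1% of its 50-base words also occur in other Gstm genes and pseudogenes. Osgin1, a stress-induced growth inhibitor, was at 9.78, 16.4 and 27.7 CPM in KO livers and 14.7, 30.0 and 8.72 CPM in WT livers. Gstt2 was at 7.82, 8.85 and 14.8 CPM in KO livers and 8.42, 15.5 and 6.69 CPM in WT livers. These 3 repeated the pattern at other levels. The omega-class Gsto1 was flatter, at 42.7, 43.2 and 49.1 CPM in KO livers and 46.2, 56.5 and 41.3 CPM in WT livers, and its annotated span overlaps Cfap43. Between the libraries of highest and lowest hepatocyte content, the summed markers differed 3.58-fold in KO and 6.45-fold in WT. For the 12 genes the same ratio ran from 1.15 to 3.20 in KO and from 1.37 to 6.56 in WT. For the other 22 it ran from 0.831 to 1.68 in KO and from 0.363 to 4.48 in WT. The 12 were chosen by that library order, which fixed the direction of their ratios, so the contrast is only a description. Macrophage and endothelial markers followed the same order of libraries, and the part of these 3 cell types in these levels was not tested. In all, 5 of the 34 spanned more than 2-fold within KO and 11 within WT.

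**Figure D5:**
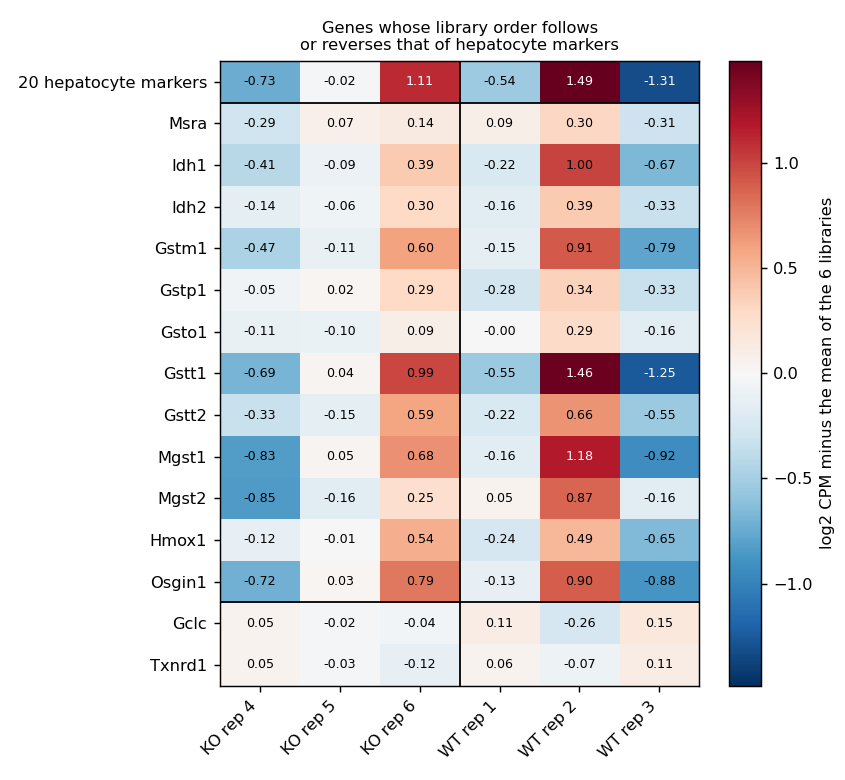
Log2 CPM of each library minus the mean of the 6 libraries, KO columns left of WT columns, for the 20 hepatocyte markers (top row), the 12 genes in the same library order and the 2 in the reverse order (bottom rows). KO replicate 6 and WT replicate 2 are the highest columns for the markers and the 12 genes. Within each group that order was set by how the 12 were chosen. The reverse pair, Gclc and Txnrd1, moves little, between -0.26 and 0.15.

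Introns of 33 of the 34 genes could be tested, and none passed the threshold. edgeR called 0 of the 33 in either direction, while 0.237% of 11803 genes were called higher and 0.483% lower. The introns of 4 genes differed at an unadjusted p under 0.05, Tkt, Me1, Gstm5 and Mgst3, against 10.8% of all genes tested. The same 4 had KO columns wholly above WT columns, against 17.5% of all genes with no overlap in either direction. Tkt introns were at 125, 123 and 93.0 CPM in KO columns and 91.2, 76.8 and 67.8 CPM in WT columns, a log2 change of 0.53 (SE 0.17, adjusted p = 0.308). Mgst3 introns were at 233, 226 and 219 CPM in KO columns and 193, 191 and 171 CPM in WT columns, a change of 0.29 (SE 0.11, adjusted p = 0.399), where its gene counts had -0.10. Me1 introns rested on few reads, 30, 18 and 24 counts in KO columns and 8, 10 and 10 counts in WT columns, a change of 0.96 (SE 0.37, adjusted p = 0.401).

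The exon-minus-intron difference was no call for any of the 33 genes, and 0% of the 11100 genes tested were called; without the sample term 0.0811% of all genes and 0 of the 33 were. At an unadjusted p under 0.05 it was met by Srxn1 and Gsr, against 3.17% of all genes. For Gsr the difference was 0.37 (SE 0.15, unadjusted p = 0.0461). Without the sample term, the Gsr difference was 0.36 (SE 0.18, edgeR unadjusted p = 0.0720) and no longer met 0.05. Its introns were at 119.6, 153 and 112 CPM in KO columns and 152, 170.4 and 163 CPM in WT columns. KO replicate 5 lay just above WT replicate 1, so the groups overlapped in introns as they did in gene counts. The intron change was -0.33 (SE 0.15, edgeR unadjusted p = 0.0523, adjusted p = 0.470). Without the columns labelled WT replicate 3, 3 of the 33 were called lower: Gstm1, Mgst1 and Osgin1 (edgeR adjusted p = 0.0480, 0.0300 and 0.0480). Of 11259 genes tested, 0.941% were called lower and 0.391% higher. Gstm1, Mgst1 and Osgin1 belong to the genes that follow hepatocyte content, described above. The exon columns of WT replicates 1 and 2 were also closest to intron columns of other labels. The WT columns kept had hepatocyte markers at 16142 and 66271 CPM in exons, but 1498 and 3738 CPM in introns. The columns left out had 10022 CPM in exons and 8987 CPM in introns. The part of this column mismatch in the 3 calls was not tested. Over the 33 genes the median difference was -0.00067, against -0.06 for all genes tested.

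Of 63 other genes of these pathways, 62 were found and 55 were tested, and 2 of them fell in KO livers and 0 rose, against 1.45% lower and 1.83% higher of all genes tested. Their median log2 change was -0.05, and 8 of the 55 had an unadjusted p under 0.05, against 16.6% of all genes tested. Both genes that fell encode gamma-glutamylcyclotransferases, which break glutathione down. Chac1 was at 0.575, 0.525 and 0.751 CPM in KO livers, against 3.62, 4.79 and 5.07 CPM in WT livers, and fell by 2.86 on the log2 scale (SE 0.24, adjusted p = 0.00830). Chac2 was at 47.6, 57.9 and 51.6 CPM in KO livers, against 130.1, 114 and 98.0 CPM in WT livers, and fell by 1.12 (SE 0.13, adjusted p = 0.0149). In both, every KO library lay below every WT library, as for the summed erythroid and mast cell markers, whose part in these changes was not tested. Chac2 overlaps the annotated Asb3 gene on the other strand. In introns Chac1 changed by -2.37 (SE 0.50, edgeR adjusted p = 0.0980), on 4 to 28 counts per column. Chac2 introns changed by -0.74 (SE 0.15, edgeR adjusted p = 0.0810), and neither was called. The Chac1 call was lost without WT replicate 3, KO replicate 4 or KO replicate 5 (adjusted p 0.0572, 0.0620 and 0.0673). The Chac2 call was lost when any library but WT replicate 2 was left out (adjusted p from 0.0520 to 0.0711), with changes of -1.22 to -1.01.

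Among 7 regulators of NRF2 target genes, 1 fell and 0 rose, against 1.45% lower and 1.83% higher of all genes tested. At an unadjusted p under 0.05 stood 4 lower and 1 higher, against 16.6% of all genes in either direction, and the median log2 change of the 7 was -0.32. Nfe2l2 itself was at 153, 134 and 134 CPM in KO livers and 118, 112 and 132 CPM in WT livers, a log2 change of 0.22 (SE 0.09, adjusted p = 0.321). The groups did not overlap, but the lowest KO libraries lay just above WT replicate 3. Keap1 was at 65.0, 62.7 and 62.8 CPM in KO livers and 62.5, 58.4 and 64.0 CPM in WT livers, a change of 0.04 (SE 0.07). Bach1 was at 139, 151 and 141 CPM in KO livers, against 110.4, 91.7 and 114 CPM in WT livers, with no overlap and a change of 0.45 (SE 0.10, adjusted p = 0.0764). The other 3 at an unadjusted p under 0.05, beside Bach1 and Mafg, were lower in KO and not called: Nfe2 at -0.49 (adjusted p = 0.0533), Nfe2l1 at -0.32 (adjusted p = 0.104) and Mafk at -0.36 (adjusted p = 0.276). The groups of Nfe2 and Nfe2l1 did not overlap, and those of Mafk did. The regulator that fell was Mafg, a small MAF partner of both NRF2 and BACH1. Mafg, Nfe2, Nfe2l1 and Mafk are named here after their values were seen. Mafg was at 118, 111 and 114 CPM in KO livers, against 182, 158 and 197 CPM in WT livers, and fell by 0.65 (SE 0.10, adjusted p = 0.0265). That call was lost when any library but WT replicate 2 was left out (adjusted p from 0.0578 to 0.128). Mafg overlaps the annotated Sirt7 gene. In introns the log2 change was -0.03 (SE 0.17) for Nfe2l2, -0.0003 (SE 0.16) for Bach1 and 0.03 (SE 0.12) for Keap1. It was -0.48 (SE 0.14) for Mafg, -0.65 (SE 0.12) for Nfe2, -0.48 (SE 0.20) for Nfe2l1 and -0.17 (SE 0.19) for Mafk. None of the 7 was called in introns, where Nfe2 had the lowest edgeR adjusted p, 0.0698. All 4 lower regulators moved in the direction of the erythroid and mast cell markers, and the part of those cells in these changes was not tested.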

How the data were processed

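Raw counts by gene symbol were deposited as 2 tables: genes, with globin and mitochondrial genes taken out per the file names, and exons beside introns. STAR and HTSeq and the builds NCBIM37 and mm10 are named in the submitters' processing notes; versions, strand setting and each table's build are not stated there or in the labels. RNA came from equal cell numbers and was selected for poly(A), per the labels' protocols. Gene counts per library were 24659978 to 44700229. Same-group libraries differed by more than sampling noise (chi-square per degree of freedom 17.8 to 168). Each library was counted as 1 replicate, though this spread cannot tell separate embryos from separate preparations of 1 pool.

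Counts were scaled by TMM and tested with edgeR 4.0.16 in R 4.3.3, by the two-sided quasi-likelihood F test after filterByExpr (minimum count 10, minimum total 15). Benjamini-Hochberg adjustment ran over all genes tested, at a threshold of 0.05. DESeq2 1.42.0 and limma 3.58.1 (voom) were alternatives, beside another scaling, no filter, a hepatocyte covariate and libraries left out. The code was tested on simulated data. The exon-minus-intron fit had a term per sample. CPM per kb used the longest protein-coding transcript (GENCODE, GRCm38); shared 50-base words were counted between annotated transcripts.

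The members and lists were chosen with earlier results of these data known. Values per library were given for genes past the threshold, the 12 members of smallest p, the highest per kilobase in each role, those in the library order of the hepatocyte markers, called pathway genes, and Nfe2l2, Keap1 and Bach1.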

Additional observations from a re-analysis of the deposited data

How the results depend on the processing

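No paired analysis was possible because KO libraries carry the numbers 4 to 6 and WT libraries 1 to 3, so no number is shared. For the 25 genes given by library among the 34, 300 changes were recomputed: 250 kept their direction and side of the threshold, 15 newly passed it, 35 changed sign and 0 lost a call. The cause of these shifts was not tested.

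DESeq2 called 543 genes higher and 501 lower in KO (2 and 1 of the 34), the hepatocyte covariate 1288 and 1305 (2 and 2 of the 34), and the fit without both libraries of highest hepatocyte content 580 and 838 (2 and 2 of the 34). Leaving out 1 library gave 5 to 483 higher and 7 to 1012 lower genes, both lowest without KO replicate 5 and highest without WT replicate 2, with 0 to 1 higher and 0 to 3 lower among the 34. For introns it gave 4 to 27 higher and 6 to 121 lower genes. For the exon-minus-intron difference it gave 0 to 44 higher and 0 to 106 lower genes, with 0 to 3 lower among the 34, and the fit without the sample term gave 9 higher genes.

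Signs turned in genes whose changes were small beside their errors. Without both libraries of highest hepatocyte content the log2 change was 0.021 for Msra, 0.21 for Idh1, 0.18 for Gstm1, 0.60 for Gstt1 and 0.19 for Mgst1. With the covariate it was -0.0082 for Idh2, -0.047 for Gstt2 and -0.11 for Osgin1. With limma-voom it was 0.0085 for Gstm1, 0.12 for Gstt1 and -0.022 for Osgin1. Leaving out 1 library, the change ran from -0.093 to 0.012 for Txn1, -0.16 to 0.016 for Taldo1, -0.23 to 0.063 for Mgst3 and -0.032 to 0.60 for Hmox1. It ran from -0.22 to 0.079 for Msra, -0.51 to 0.43 for Idh1, -0.12 to 0.29 for Idh2, -0.47 to 0.51 for Gstm1 and -0.19 to 0.042 for Gsto1. It ran from -0.69 to 1.13 for Gstt1, -0.32 to 0.47 for Gstt2, -0.66 to 0.58 for Mgst1 and -0.48 to 0.61 for Osgin1. Slc7a11 rested on 18 to 65 counts per library, the thinnest of the 34, which limits its precision.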
